A study of Sus scrofa with 4 samples.

Results

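The respiratory chain and the ATP synthase are the machinery of oxidative phosphorylation, and 66 of their genes, of 6765 named genes on the array, were followed here in pig skin fibroblasts. They were picked by a naming rule, with earlier results of these data known. It took probesets with a single gene symbol. The symbol began with NDUF, UQCR, SDHA to SDHD, COX and a digit, or ATP5, or was CYC1 or CYCS. The rule found 85 probesets, and each gene is represented by its brightest. By complex there were 32 genes of complex I, 4 of complex II, 2 of complex III, 1 for cytochrome c, 8 of complex IV and 13 of complex V, with 6 assembly factors and other names the rule catches. The porcine genes CYC1, UQCRC1, UQCRFS1, COX4I1 and COX5A were among those with no single-symbol probeset here, so complexes III and IV are covered only in part.

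The cells were dermal fibroblasts of Duroc pigs, grown to confluence from biopsies of deep and shallow wounds on the back at 20 weeks, in a model of skin fibrosis. There were 4 arrays from 2 pigs, with 1 deep-wound and 1 shallow-wound culture from each pig. Both depths shared the breed, the time, the medium and the serum supplement; the animals' sex and age are not given in the labels. Cells in culture have left the wound, and 1 culture per wound gives no measure of how cultures of the same wound vary. The titles name each array's partner by a number, read here as the order of the samples listed, and arrays are called deep or shallow of pig 1 and pig 2.

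Complex I oxidizes NADH and passes its electrons to ubiquinone, complex II (succinate dehydrogenase) does the same with succinate, complex III passes them on to cytochrome c, and complex IV hands them to oxygen. Complexes I, III and IV pump protons out of the mitochondrial matrix, and complex V, the ATP synthase, lets them back in to make ATP. Most subunits are encoded in the nucleus, made in the cytosol and imported, while a small core is encoded by mitochondrial DNA; the genes described here are nuclear. In fibroblasts this machinery runs beside glycolysis, which supplies much of the ATP of cultured cells.

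Some arrays stood apart before any of these genes was considered. Actin's ratio of 3' to 5' signal, which grows as labelled RNA is cut short, was 3.28 and 6.10 on the deep arrays of pig 1 and pig 2, against 1.96 and 2.41 on the shallow arrays, in RNA that per the labels' protocols was of high integrity. Hybridization controls, spiked in at a fixed amount, averaged 3808 and 8606 signal units on the deep arrays and 2754 and 3169 on the shallow arrays. Of 8 epithelial markers, 6 were measured, and their summed signal was 278 and 129 on the deep arrays against 5402 on the shallow array of pig 1 and 191 on that of pig 2. Of 9 fibroblast markers, 7 were measured, and all 7 were higher on both deep arrays than on both shallow arrays. Of all probesets tested, 23.2% were so. The fibroblast markers summed to 39928 and 55493 on the deep arrays against 24098 and 29412 on the shallow arrays. Few measured markers of other cell types passed the filter on dim probesets described below. It kept 1 of 5 endothelial, 1 of 4 leukocyte, 0 of 6 striated muscle and 0 of 3 adipocyte markers. The muscle and adipocyte sums are therefore of dim signals only. Summed markers of endothelium ranged from 285 to 358 on the deep arrays and from 192 to 626 on the shallow arrays. Those of leukocytes ranged from 86.9 to 116 and from 97.7 to 140. Those of striated muscle ranged from 80.6 to 173 and from 56.6 to 63.2, and those of adipocytes from 43.0 to 55.1 and from 50.8 to 69.8. Their part in the differences below was not tested.

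By the mean of the pigs, 28 of 32 complex I genes read lower in deep-wound fibroblasts, by small amounts, where 7471 of all 14399 probesets did, and no gene of the 5 complexes passed the test singly. The median log2 difference over the 32 complex I genes, deep minus shallow, was -0.26, against -0.02 over all 14399 probesets tested and -0.04 over the 5272 named genes tested. It was -0.36 in pig 1 and -0.14 in pig 2. Complex IV went the other way on the deposited scale, with a median of 0.22 over 7 measured genes, but its median was -0.05 after quantile normalization of the arrays. Complexes II, III and V and the assembly factors had medians of -0.07, -0.38, -0.05 and -0.02, the second of these over 2 genes only.

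Of the 66 genes, 65 passed the filter on dim probesets, which kept probesets with a mean signal of at least 27.1 over the 4 arrays. The exception was COX8H, described with complex IV. Each gene was read from a limma fit across all 14399 probesets that took the pig as a block, with Benjamini-Hochberg adjustment over all of them. At an adjusted p of 0.05, 0 of the 65 were called higher and 0 lower, where 0.236% of all probesets were called higher and 0.104% lower. The smallest adjusted p was 0.172, for NDUFA12. At an unadjusted p of 0.05 the same fit had 0 of the 65 higher and 4 lower, against 6.94% and 6.92% of all probesets. The median standard error of a log2 difference among these genes was 0.27, and the 95% interval of a gene reached about 1.5-fold either side of its value. In RNA from a whole culture, fewer cells of a kind and less RNA per cell cannot be told apart.

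Overlap of the groups was counted without a model. Both deep arrays lay below both shallow arrays for 27 of the 65 genes, or 41.5%, where 25.5% of all probesets did so. Both lay above for 5, or 7.69%, where 23.2% of all probesets did. The difference had the same negative sign in both pigs for 32 genes and the same positive sign for 12, and the pigs disagreed for 21. These are 49.2% lower and 18.5% higher in both pigs, where 31.6% and 29.8% of all probesets were. Bright probesets as a whole leaned the other way: the 1963 probesets with a mean signal of at least 1000 had a median of 0.08, and 21.9% of them had both deep arrays below both shallow arrays. The 44 genes of the set that were as bright had a median of -0.08, and 45.5% of them had the deep arrays below. The limit of 1000 was chosen after the values were seen.

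**Figure D1:**
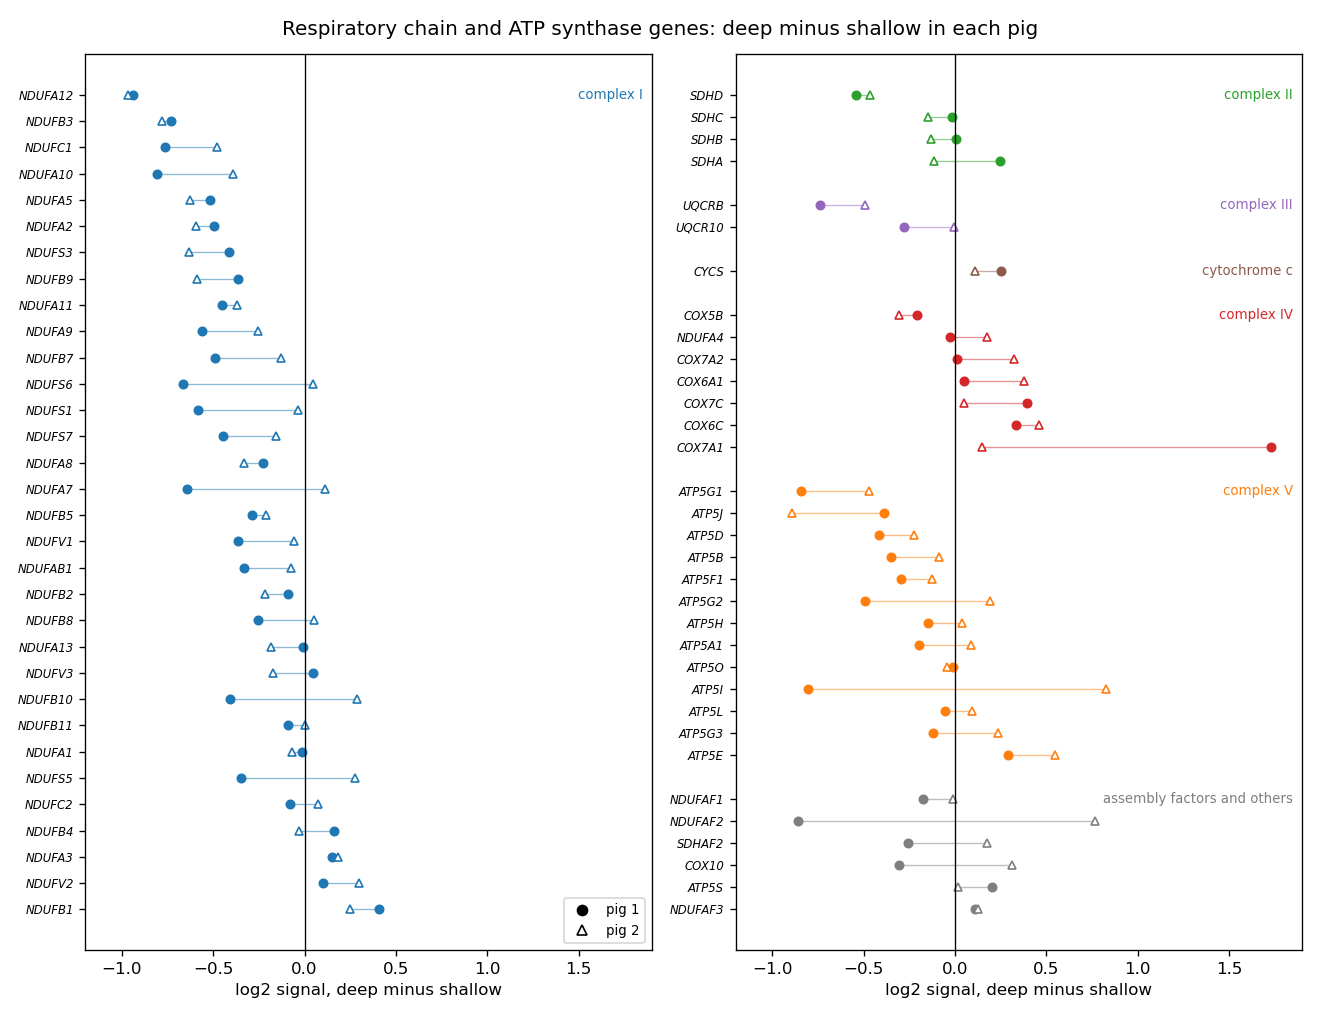
Log2 signal on the deep array minus that on the shallow array of the same pig, for the 65 genes past the filter, ordered within each complex by the mean of both pigs; filled circles are pig 1, open triangles pig 2, and the line joins them. In complex I, 20 genes lie left of 0 in both pigs and 3 lie right of 0 in both. In complex IV, 5 lie right of 0 in both and 1, COX5B, lies left. Of all probesets tested, 31.6% were lower and 29.8% higher in both pigs.

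The lowest complex I gene in deep cultures was NDUFA12, an accessory subunit of the arm of the complex that reaches into the matrix. It read 737 and 737 on the deep arrays of pig 1 and pig 2, against 1413 and 1439 on the shallow arrays. The arrays of each depth were nearly equal and the depths did not overlap. The log2 difference was -0.95 ± 0.26 (SE; 95% interval -1.56 to -0.35; limma, adjusted p = 0.172), a 1.94-fold lower signal in deep cultures. With any 1 array left out it stayed between -0.97 and -0.94. Fits with 1 array left out had no pig block and a single array at 1 depth, so only effect sizes are given from them.

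Next in size were NDUFB3 and NDUFC1, accessory subunits of the arm that lies in the inner membrane. NDUFB3 read 1126 and 843 on the deep arrays and 1871 and 1451 on the shallow arrays, a log2 difference of -0.76 ± 0.26 (limma, adjusted p = 0.253). Its other probeset read 1029 and 935 on the deep arrays and 1672 and 1369 on the shallow arrays, again without overlap of the depths. NDUFC1 read 1191 and 1078 on the deep arrays, against 2021 and 1505 on the shallow arrays (-0.62 ± 0.27; limma, adjusted p = 0.357). In both genes the shallow array of pig 1 was the brightest of the 4, and without it the difference was -0.57 for NDUFB3 and -0.41 for NDUFC1.

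The matrix arm holds the flavin and the iron-sulfur clusters that carry electrons from NADH to ubiquinone. Over its 12 measured genes the median difference was -0.31, and 8 were lower in both pigs and 1, NDUFV2, higher. These are 66.7% and 8.33%, where 31.6% and 29.8% of all probesets were lower and higher in both pigs. NDUFS1, the largest subunit and a carrier of iron-sulfur clusters, read 466 and 540 on the deep arrays and 699 and 553 on the shallow arrays, a difference of -0.31 ± 0.29 that was small in pig 2 (-0.03). With 1 array left out it lay between -0.48 and -0.14, the smallest without the shallow array of pig 1. NDUFV1, which binds NADH and the flavin, read 362 and 336 against 466 and 350 (-0.21 ± 0.28), with the depths overlapping. Its partner NDUFV2, which holds a further cluster, read 3145 and 4110 on the deep arrays and 2927 and 3342 on the shallow arrays, a difference of 0.20 ± 0.27. The signs of NDUFV1 and NDUFV2 differed, but each difference was smaller than its SE and the depths overlapped for both. Neither gene passed the test.

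Among the other genes of that arm, NDUFS3, a core subunit near the ubiquinone site, had 3 probesets past the filter and all were lower by the mean of the pigs. The brightest read 955 and 728 on the deep arrays and 1270 and 1127 on the shallow arrays, a difference of -0.52 ± 0.27, or -0.33 without the deep array of pig 2. A dimmer probeset read 169 and 127 against 283 and 278 (-0.94), and the dimmest overlapped between depths (-0.41). NDUFA2, an accessory subunit of the NADH-oxidizing end, read 1145 and 1069 on the deep arrays against 1615 and 1614 on the shallow arrays (-0.55 ± 0.26). NDUFA5, which sits beside NDUFS3, read 330 and 294 against 473 and 454 (-0.57 ± 0.28). For NDUFA2 and NDUFA5 the depths were apart by more than the arrays of either depth were. The core subunit NDUFS7 read 702 and 719 on the deep arrays against 957 and 801 on the shallow arrays (-0.30 ± 0.27). NDUFA9, which lies where the arms meet, read 654 and 651 against 965 and 778 (-0.41 ± 0.27). For both, the shallow array of pig 1 was the brightest, and without it the differences were -0.17 for NDUFS7 and -0.25 for NDUFA9. NDUFS6, an accessory subunit, read 264 and 353 against 418 and 342 (-0.31 ± 0.31), lower in pig 1 and level in pig 2. With 1 array left out it lay between -0.52, with the deep array of pig 2 dropped, and -0.099, with that of pig 1 dropped.

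The membrane arm carries the proton pumps, whose core is encoded by mitochondrial DNA, wrapped in small nuclear-encoded subunits. Over its 19 measured genes the median difference was -0.10, with 11 (57.9%) lower in both pigs and 2 (10.5%) higher in both. Of all probesets, 31.6% and 29.8% were. NDUFA10, NDUFB9 and NDUFA11 were examples of those lower in both. NDUFA10 read 384 and 358 on the deep arrays and 671 and 469 on the shallow arrays (-0.60 ± 0.28). NDUFB9 read 1775 and 1629 on the deep arrays against 2284 and 2450 on the shallow arrays (-0.48 ± 0.27). NDUFA11 read 969 and 972 against 1327 and 1253 (-0.41 ± 0.26). All 3 are accessory subunits, and in each the deep arrays lay below the shallow ones. Without the shallow array of pig 1 the NDUFA10 difference was -0.34.

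Not all of the membrane arm read lower. NDUFB1 was the 1 complex I gene whose deep values both exceeded its shallow values, at 4700 and 5462 against 3548 and 4597 (0.33 ± 0.28; limma, adjusted p = 0.664). Dropping the shallow array of pig 1 gave 0.14, and dropping that of pig 2 gave 0.51. NDUFA3 read 1206 and 1378 on the deep arrays and 1085 and 1214 on the shallow arrays (0.17 ± 0.26), with the depths overlapping. NDUFA1 had probesets that disagreed. Its brightest read 2010 and 2049 on the deep arrays and 2028 and 2149 on the shallow arrays (-0.04), while the other, whose suffix marks probes shared with further transcripts, read 857 and 1163 against 444 and 869 (0.68). NDUFAB1, the mitochondrial acyl carrier protein, is found in both arms and read 2135 and 2385 against 2685 and 2511 (-0.20 ± 0.27).

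**Figure D2:**
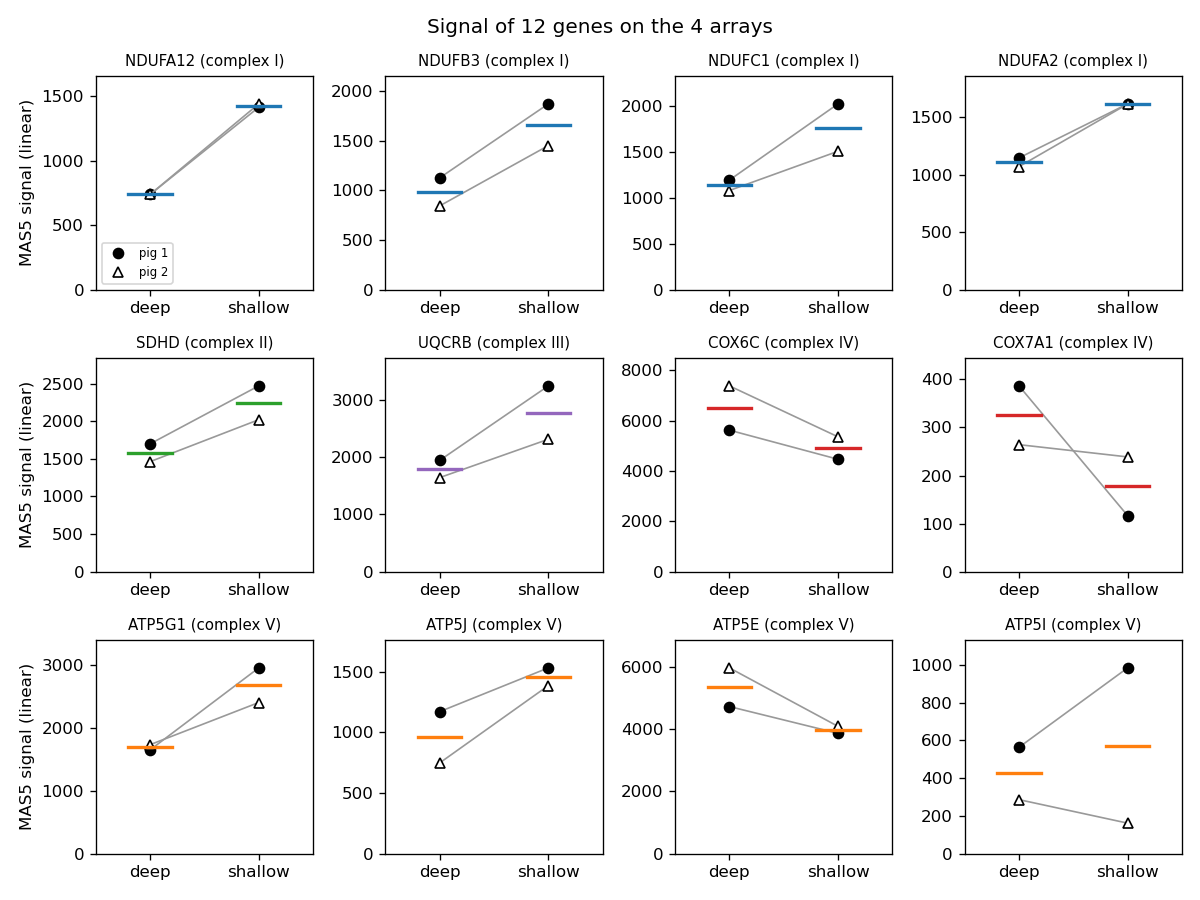
MAS5 signal on a linear scale from 0, for 12 genes chosen to show the differences described; filled circles are pig 1, open triangles pig 2, grey lines join the arrays of a pig, and coloured bars are the means of n = 2 arrays. NDUFA12 sits at 737 on both deep arrays and at 1413 and 1439 on the shallow arrays, while ATP5I runs in opposite directions in the pigs.

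Complex II is the only complex here with all 4 of its subunits measured, and 3 of them lay close to 0. SDHA, the flavoprotein that oxidizes succinate, read 1416 and 1130 on the deep arrays and 1195 and 1223 on the shallow arrays (0.07 ± 0.27, 95% interval -0.56 to 0.69). SDHB, the iron-sulfur subunit, read 1639 and 1608 against 1630 and 1761 (-0.06 ± 0.26), and its other probeset differed by 0.06. SDHC, a membrane anchor, read 824 and 742 on the deep arrays against 833 and 822 on the shallow arrays (-0.08 ± 0.26). The depths overlapped for all 3. The intervals of these 3 genes reach about 1.5-fold either way, so they do not show that the levels were equal. The other anchor, SDHD, was apart from them, at 1698 and 1461 on the deep arrays and 2470 and 2020 on the shallow arrays (-0.50 ± 0.26; limma, adjusted p = 0.450), with no overlap.

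Both genes of complex III read lower on the deep arrays. UQCRB, a subunit that helps bind ubiquinone, read 1943 and 1641 on the deep arrays against 3245 and 2312 on the shallow arrays (-0.62 ± 0.27; limma, adjusted p = 0.364). Without the shallow array of pig 1 the difference was -0.37. The suffix of its only probeset marks probes shared with further transcripts. UQCR10, a small accessory subunit, read 1656 and 1948 against 2010 and 1952 (-0.14 ± 0.27), with the arrays of pig 2 level. Cytochrome c itself, CYCS, read 1824 and 1371 on the deep arrays and 1530 and 1272 on the shallow arrays (0.18 ± 0.26). It was higher in each pig by less than the arrays of a depth differed.

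Complex IV read higher on the deep arrays for 6 of its 7 measured genes by the mean of the pigs, and for 3, or 42.9%, every deep value exceeded every shallow value, where 23.2% of all probesets did so. Among its 6 genes with a mean signal of at least 1000 the share was 33.3%, near the 34% of all probesets that bright. After quantile normalization COX6A1, COX7A2, COX7C and NDUFA4 turned negative, and without the deep array of pig 2 the median of the complex was 0.01. COX6C, a small nuclear-encoded subunit, read 5617 and 7377 on the deep arrays and 4460 and 5351 on the shallow arrays (0.40 ± 0.28). COX7C, another, read 5770 and 5510 against 4392 and 5329 (0.22 ± 0.29). For both, each deep array was above each shallow one, and neither gene passed the test. Without the deep array of pig 2 the COX6C difference was 0.20. COX6A1 read 3599 and 4779 on the deep arrays against 3474 and 3670 on the shallow arrays (0.22 ± 0.28), and NDUFA4, long counted with complex I and now placed in complex IV, read 3834 and 4769 against 3912 and 4215 (0.07 ± 0.28). In both the deep array of pig 2 was the highest of the 4, as it also was for the actin ratio and the hybridization controls.

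COX7A1 and COX7A2 are alternative forms of the same subunit, the first known from heart and skeletal muscle and the second from most other tissues. COX7A1 read 387 and 264 on the deep arrays and 116 and 239 on the shallow arrays, the largest positive difference of all 65 genes (0.94 ± 0.41; limma, adjusted p = 0.362). The depths did not overlap, yet the difference came mostly from pig 1, at 1.73 against 0.15 in pig 2. When the shallow array of pig 1 was dropped it was 0.42, and without that of pig 2 it was 1.46. Of 8 striated muscle markers 6 were measured and 0 passed the filter. For 3 of them, as for COX7A1, each deep value exceeded each shallow value. The share was 23.2% of all probesets tested, which all passed the filter. Among dim probesets like these markers the share is not given here, so the count cannot be judged against it. MYH7, a slow myosin, read 28.2 and 35.7 on the deep arrays against 20.4 and 17.3 on the shallow arrays. DES, the muscle filament protein desmin, read 25.6 and 55.9 against 15.6 and 9.67. CKM, muscle creatine kinase, read 17.3 and 28.3 against 11.2 and 12.3. Control probesets for transcripts absent from the samples read up to 21.8 and 30.9 on the deep arrays and 14.8 and 13.6 on the shallow arrays. These limits were thus themselves higher on the deep arrays. MYH7 was above them on all 4 arrays and CKM under them on all 4, while DES was under on the shallow array of pig 2. TNNT3 was lower on both deep arrays, and MYH2 and TNNT1 overlapped. The part of these markers in the COX7A1 difference was not tested. COX7A2 read 3463 and 4606 on the deep arrays against 3439 and 3677 on the shallow arrays (0.17 ± 0.28), so the forms shared a sign on the deposited scale.

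COX5B, a subunit of the matrix face, was the exception of complex IV. It read 2916 and 2911 on the deep arrays, against 3367 and 3599 on the shallow arrays (-0.26 ± 0.27; limma, adjusted p = 0.735). It was lower in both pigs, without overlap. COX8H, the muscle form of a small membrane subunit, did not pass the filter, with signals of 6.98 and 12.2 on the deep arrays and 18.2 and 15.8 on the shallow arrays. Among 23 probesets for control transcripts not present in the samples, the highest read 21.8 and 30.9 on the deep arrays and 14.8 and 13.6 on the shallow arrays, so COX8H was under that control on both deep arrays and just over it on the shallow arrays.

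**Figure D3:**
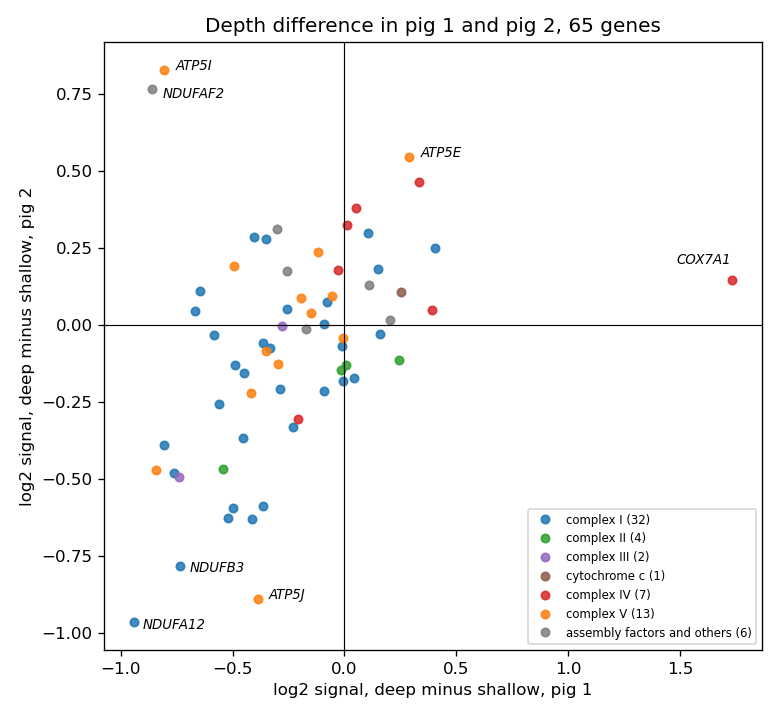
Depth difference on the log2 scale in pig 1 (horizontal) and pig 2 (vertical) for the 65 genes, coloured by complex with the number of genes in brackets. NDUFA12 lies at -0.94 and -0.97, COX7A1 at 1.73 and 0.15, and ATP5I and NDUFAF2 lie in the upper left, where the pigs disagree.

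ATP synthase genes were divided. In complex V, 6 of 13 (46.2%) were lower in both pigs, 1 (7.69%) was higher in both and in 6 the pigs disagreed. Shares over all probesets were 31.6% lower and 29.8% higher in both. The catalytic head is built of alpha and beta subunits. ATP5A1, the alpha subunit, read 4617 and 4641 on the deep arrays and 5287 and 4370 on the shallow arrays (-0.05 ± 0.28). ATP5B, the beta subunit, read 3677 and 4325 against 4686 and 4587 (-0.22 ± 0.28). The depths overlapped for the first and not for the second. In the central stalk the subunits differed in direction. ATP5D, the delta subunit, read 914 and 937 on the deep arrays and 1220 and 1094 on the shallow arrays (-0.32 ± 0.26). ATP5E, the epsilon subunit, read 4718 and 5959 against 3857 and 4081 (0.42 ± 0.28; limma, adjusted p = 0.559). Neither had overlapping depths, and without the deep array of pig 2 the ATP5E difference was 0.25.

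The proton-carrying ring of the ATP synthase is made of subunit c, for which ATP5G1, ATP5G2 and ATP5G3 encode the same mature protein behind different import sequences. ATP5G1 read 1651 and 1735 on the deep arrays and 2959 and 2407 on the shallow arrays, a difference of -0.66 ± 0.27 (limma, adjusted p = 0.344) and the lowest in complex V. ATP5G2 read 1491 and 1802 against 2096 and 1579 (-0.15 ± 0.29). ATP5G3 read 5492 and 6885 on the deep arrays and 5963 and 5839 on the shallow arrays (0.06 ± 0.29), or -0.35 after quantile normalization. Of these 3 genes ATP5G1 alone had depths that did not overlap; whether the 3 differ from each other was not tested.

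In the peripheral stalk, which holds the head still against the turning ring, ATP5J read 1170 and 747 on the deep arrays against 1531 and 1385 on the shallow arrays (-0.64 ± 0.28; limma, adjusted p = 0.361). The deep array of pig 2 set much of this, and the difference was -0.32 when it was dropped and -0.96 when that of pig 1 was. ATP5F1, the b subunit of the stalk, read 2806 and 3123 against 3443 and 3407 (-0.21 ± 0.27). Both were lower in each pig. Other measured subunits of the stalk lay near 0, with the depths overlapping. ATP5H read 2756 and 3082 against 3055 and 3000 (-0.05 ± 0.27), and the pigs disagreed. ATP5O read 3141 and 3219 against 3160 and 3313 (-0.02 ± 0.27). Subunits e and g lie in the membrane and take part in pairing of the enzyme. Subunit g, ATP5L, read 4116 and 4612 on the deep arrays and 4274 and 4320 on the shallow arrays (0.02 ± 0.28). Subunit e, ATP5I, read 564 and 286 on the deep arrays and 985 and 161 on the shallow arrays. Its 4 values ran by pig and not by depth, with a difference of -0.81 in pig 1 and 0.83 in pig 2. Its difference was -1.30 when the shallow array of pig 2 was dropped, and 1.32 when that of pig 1 was. ATPIF1, the inhibitor of the ATP synthase, lies outside the rule and read 2390 and 2639 against 2567 and 2753 (-0.08 ± 0.27).

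Assembly factors and other names caught by the rule stayed near 0, with a median of -0.02, and none of the 6 had depths apart in either direction. NDUFAF1, an assembly factor of complex I, read 121 and 117 on the deep arrays and 136 and 118 on the shallow arrays (-0.09 ± 0.33). NDUFAF3, another, read 281 and 310 against 260 and 283 (0.12 ± 0.29). COX10, which makes the heme a of complex IV, read 74.4 and 121 on the deep arrays and 91.9 and 97.1 on the shallow arrays (0.00 ± 0.37). NDUFAF2, which helps NDUFA12's part of complex I into place, read 98.9 and 145 against 180 and 85, and the pigs disagreed (-0.86 in pig 1 and 0.77 in pig 2). SDHAF2, which helps to load flavin onto SDHA, read 164 and 225 on the deep arrays and 196 and 200 on the shallow arrays (-0.04 ± 0.31). ATP5S, named for a coupling factor of the ATP synthase, read 344 and 359 against 299 and 355 (0.11 ± 0.28).

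For 10 genes more than 1 probeset passed the filter. In 4 of them, NDUFAF1, NDUFB3, NDUFS3 and NDUFV2, all such probesets had the same sign, and in 6, NDUFA1, SDHA, SDHB, SDHAF2, ATP5L and ATP5S, they did not. The dimmer probesets of NDUFV2 read 118 and 353 on the deep arrays against 91.7 and 103 on the shallow arrays, and 67.8 and 117 against 41.7 and 52.5. In both the deep arrays were above the shallow ones, by 1.07 and 0.93, where the brightest NDUFV2 probeset overlapped at 0.20. Whether probesets of a gene share probes was not checked, as no probe sequences were at hand. Only the signs and differences are set beside each other here.

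The pigs gave related but not equal pictures. Across the 65 genes, which share their arrays, Pearson's r between the difference in pig 1 and that in pig 2 was 0.36 and Spearman's rho 0.45. Over all 14399 probesets r was 0.34. Across the 32 complex I genes r was 0.57. When deep and shallow arrays were matched across pigs instead, r was 0.08 across the 65 genes, 0.57 across complex I and 0.41 over all probesets. Across the 7 complex IV genes it was 0.10 within pigs and 0.91 across them, so the better match of same-pig arrays among the 65 genes did not hold for all probesets or for complex IV. Within a depth, the median absolute log2 difference between the pigs was 0.15 on the deep arrays and 0.17 on the shallow arrays for complex I, and the median absolute difference between depths was 0.27. For all probesets these values were 0.30, 0.33 and 0.33. Complex IV showed 0.39 between the deep arrays, 0.11 between the shallow arrays and 0.22 between depths.

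Complex I kept a negative median under the 12 settings of scaling, pairing, floor, probeset choice and arrays used, from -0.35 to -0.17. Leaving out the shallow array of pig 1, the one with the epithelial markers, gave the smallest size, -0.17, and leaving out the deep array of pig 2, with the highest actin ratio, gave -0.30. Complex III ranged from -0.51 to -0.25. Complex IV ranged from -0.24 with the actin ratio as covariate to 0.37 without the deep array of pig 1, so its direction depended on the setting. The actin ratio was higher on both deep arrays than on both shallow arrays, so a fit with it cannot fully separate it from depth. Complex V lay between -0.30 after quantile normalization and 0.02 with each array centred on its median, and complex II between -0.13 and 0.01.

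**Figure D4:**
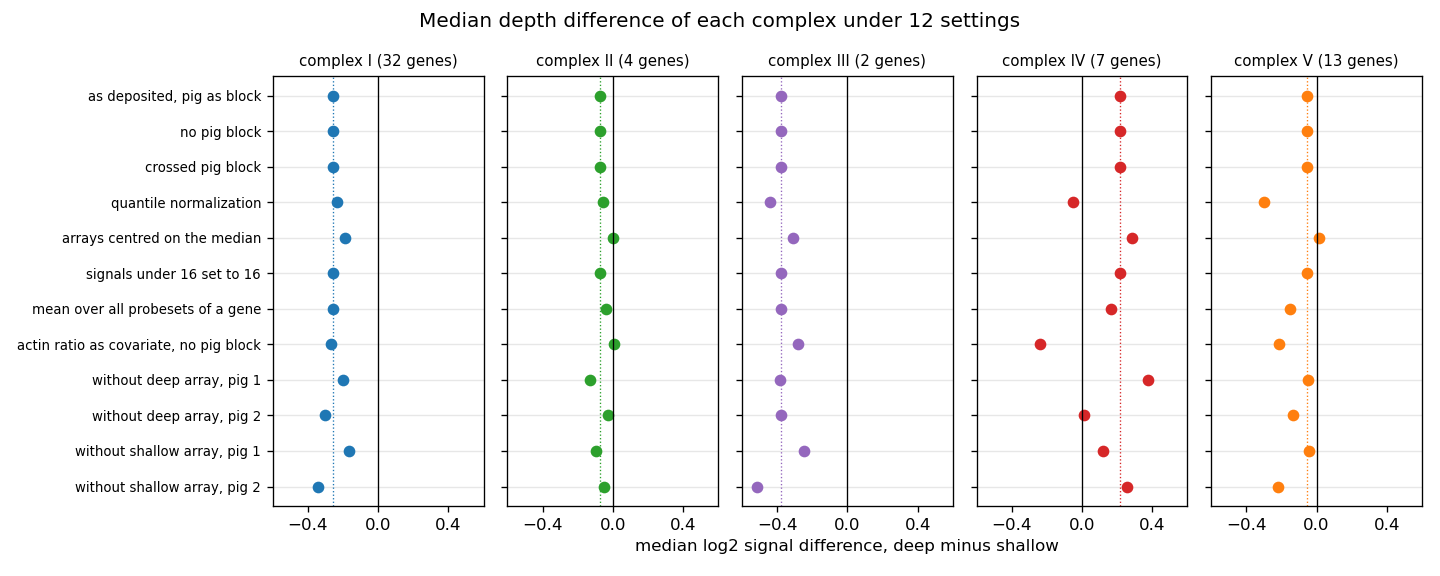
Median log2 difference, deep minus shallow, of the genes of each complex (horizontal) under 12 settings of scaling, pairing, floor, probeset choice and arrays used (rows); the dotted line is the value on the deposited scale with the pig as a block, and the black line is 0. Complexes I and III stay left of 0 in all rows, and complex IV lies left of 0 after quantile normalization and with the actin ratio as covariate.

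Genes that feed the chain or build it were read from lists. In the citrate cycle, which supplies the NADH and succinate, 12 of 13 genes had a probeset and passed the filter, with a median of -0.30. Of these 0 were called, 9 were lower in both pigs and 0 higher, and 8 had both deep arrays below both shallow arrays, or 66.7%. Over all probesets 31.6% were lower in both pigs, and 25.5% had both deep arrays below. The isocitrate dehydrogenase subunits are examples. IDH3B read 263 and 255 on the deep arrays against 512 and 345 on the shallow arrays (-0.70 ± 0.30; limma, adjusted p = 0.350), IDH3G read 278 and 268 against 434 and 369 (-0.55 ± 0.28), and IDH3A read 247 and 209 against 339 and 294 (-0.47 ± 0.29). OGDH, of the 2-oxoglutarate dehydrogenase, was the 1 gene with a positive mean, at 335 and 590 against 337 and 237 (0.65 ± 0.36), which came from pig 2.

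Factors for mitochondrial DNA and biogenesis had few named probesets, 6 of 17, and 5 of these passed the filter. The median of the 5 was -0.45, and 0 were called. In both pigs 4 were lower, or 80%, and 0 higher, where 31.6% and 29.8% of all probesets were. TFAM, which packages and transcribes mitochondrial DNA, read 610 and 547 on the deep arrays and 905 and 689 on the shallow arrays (-0.45 ± 0.27). SSBP1, which binds single-stranded mitochondrial DNA, read 1158 and 1019 against 1629 and 1380 (-0.46 ± 0.26). The depths of both were apart, as were those of PPRC1 (-0.53). These 3 of the 5, or 60%, had both deep arrays below, where 25.5% of all probesets did. Depths overlapped for YY1 (-0.19) and TFB1M (-0.23). PPARGC1A, a coactivator that drives mitochondrial biogenesis, was too dim for the filter, at 18.1 and 2.44 on the deep arrays, under the highest absent control, and 23.3 and 78.5 on the shallow arrays.

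Electron carriers and transporters outside the complexes had 12 of 14 listed genes past the filter, a median of -0.06 and 0 called. The ADP/ATP exchangers differed in direction. SLC25A5 read 1783 and 1941 on the deep arrays against 3415 and 2172 on the shallow arrays (-0.55 ± 0.30), and SLC25A4 read 590 and 505 against 699 and 815 (-0.47 ± 0.28). SLC25A6 read 6094 and 10056 against 4950 and 4867 (0.67 ± 0.31; limma, adjusted p = 0.395). In each the depths did not overlap. ETFDH, which passes electrons from fatty acid oxidation to ubiquinone, read 487 and 373 on the deep arrays and 759 and 504 on the shallow arrays (-0.54 ± 0.27). ETFA and ETFB of the same list differed in direction. ETFA read 1534 and 1431 against 1689 and 1647 (-0.17 ± 0.26). ETFB was higher in both pigs, at 760 and 973 against 658 and 831 (0.22 ± 0.26), with the depths overlapping.

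Assembly factors outside the naming rule and genes of ubiquinone synthesis had 15 of 39 listed genes past the filter, a median of -0.10 and 0 called. BCS1L, which inserts the iron-sulfur subunit into complex III, read 79.4 and 75 on the deep arrays and 186 and 130 on the shallow arrays (-1.01 ± 0.35; limma, adjusted p = 0.250). PDSS1, which makes the side chain of ubiquinone, read 54.8 and 59.6 against 321 and 66.7 (-1.36 ± 0.55; limma, adjusted p = 0.334), so its shallow level rested on pig 1. OXA1L, which inserts proteins into the inner membrane, read 1398 and 2193 on the deep arrays against 1238 and 1298 on the shallow arrays (0.47 ± 0.28), and COQ9, a ubiquinone synthesis factor, read 301 and 386 against 213 and 285 (0.47 ± 0.29). The depths of BCS1L and PDSS1 were apart with deep lower, and those of OXA1L and COQ9 with deep higher.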

How the data were processed

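Values deposited by the authors are linear probeset intensities for the 4 porcine arrays. The submitters' processing notes name MAS5 and GCOS 1.0. Means trimmed of the top and bottom 2% were 250.1 on every array, so arrays had been scaled to a common level; the scaling target is not given in the sources used here. Precision is limited by the number of arrays. After removing 124 control probesets, signals under 1 were set to 1 (2547 of 95996 values), taken to log2, and 14399 of 23999 probesets at or above the 40th percentile of mean log2 signal (27.1) were tested with limma 3.58.1 in R 4.3.3 (lmFit, eBayes with trend, pig as block, 1 residual degree of freedom). Pairing follows the titles in listed order; residuals of same-pig arrays correlated at -0.01. P-values and SEs combine a gene's own spread between these arrays with a variance trend fitted over all probesets. The trend weighs more, with a median of 6.88 prior degrees of freedom against 1 residual. An SE is thus largely common to genes of like signal and is not a gene's own spread. Names came from the platform annotation; the gene identifiers of all 66 genes were in the RefSeq table of Sscrofa11.1. The fit was tested on simulated data.

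The genes and lists were chosen with earlier results of these data known. Named were, per complex, the brightest gene and up to 3 with the largest difference each way, and core subunits and isoforms listed by name. NDUFA1, NDUFA2, NDUFA5, NDUFA9, NDUFA10, NDUFA11, NDUFAB1, NDUFB9, NDUFS3, NDUFS6 and NDUFS7 were named after their values were seen. So were ATP5F1, ATP5G2, ATP5H, ATP5O and the list members. Probesets with several symbols were left out.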

Additional observations from a re-analysis of the deposited data

How the results depend on the processing

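Values are log2 differences, deep minus shallow. The 4 arrays leave 1 residual degree of freedom, so a gene that missed the threshold may still differ, and dim genes such as COX8H have no usable level. With the pig as a replicate block 0 of the 65 genes were called, and without it, or with the pairing crossed, also 0, with a smallest adjusted p of 0.242 and 0.108 (limma); over all probesets these fits called 49, 0 and 202. The same 0 was found after quantile normalization (96 probesets called in all), with arrays centred on the median (5), with signals under 16 set to 16 (70), with no filter (0), with the mean over a gene's probesets (18), with the actin ratio as covariate (0) and with no mean-variance trend (3). Because the actin ratio was higher on both deep arrays than on both shallow arrays, that covariate cannot be fully separated from depth. The causes of the shifts below were not tested.

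Fits with arrays left out in turn had no pig block and a single array at 1 depth, so calls from them are not given. With every array used, both deep arrays lay above both shallow arrays for 5 genes and below for 27. With arrays centred these counts were 8 and 24. With arrays left out, the remaining deep values all lay above the remaining shallow values for 8 to 21 genes. They all lay below for 31 to 43, the highest without the deep array of pig 2. With fewer values, depths are apart more easily in either direction, so these counts cannot be compared with 5 and 27. Shares of all probesets in these settings are not given here. The complex IV median was -0.049 after quantile normalization, -0.24 with the actin covariate and 0.012 to 0.37 with arrays left out, and the complex V median was -0.30 after quantile normalization.

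The actin covariate, which left no pig block, turned the sign of NDUFB1 (-0.031), ATP5S (-0.040), NDUFAF3 (-0.071), NDUFA3 (-0.091), COX6C (-0.11), ATP5L (-0.16), COX6A1 (-0.24), NDUFV2 (-0.27), ATP5G3 (-0.27), NDUFA4 (-0.29), COX7A2 (-0.30), COX10 (-0.75), NDUFAF1 (0.031), ATP5A1 (0.034), NDUFV1 (0.046), SDHC (0.086) and ATP5J (0.092). Quantile normalization turned COX6A1 (-0.028), COX7C (-0.049), COX7A2 (-0.067), NDUFA4 (-0.18), ATP5L (-0.22), ATP5G3 (-0.35), NDUFAF2 (0.015) and SDHAF2 (0.041). Centring turned SDHB (0.0083), ATP5A1 (0.016), NDUFAF2 (0.023), SDHAF2 (0.030) and NDUFA1 (0.029). The mean over probesets turned ATP5S (-0.064), COX10 (-0.42), ATP5L (-0.48), SDHAF2 (0.0080), NDUFAF2 (0.62) and NDUFA1 (0.32).

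With arrays left out in turn, signs also turned for ATP5A1 (-0.19 to 0.083), ATP5G2 (-0.35 to 0.054), ATP5G3 (-0.10 to 0.22), ATP5I (-1.30 to 1.32), ATP5L (-0.062 to 0.10), ATP5S (-0.014 to 0.23), COX10 (-0.34 to 0.35), COX7A2 (-0.038 to 0.37), CYCS (-0.025 to 0.39), NDUFA1 (-0.083 to 0.0012), NDUFA4 (-0.083 to 0.23), NDUFAF1 (-0.20 to 0.012), NDUFAF2 (-0.59 to 0.49), SDHA (-0.097 to 0.23) and SDHAF2 (-0.27 to 0.19). NDUFA12 stayed between -0.97 and -0.88 under all settings. Among the fits with every array used, its smallest adjusted p (limma) was 0.108, with the pairing crossed, so none of these fits called it.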
